A study of Danio rerio with 8 samples.

Results

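Knockdown of ddx3xb, a DEAD-box RNA helicase gene, was compared with control in zebrafish (Danio rerio) embryos at 2 hours post fertilization (hpf). The knockdown embryos received a morpholino against ddx3xb. The titles of the other group name a control morpholino, while its genotype label reads wild type. Morpholinos are antisense oligomers that block translation or splicing of the RNA they bind, and the labels give neither their dose nor the strain of the fish. Each group held 2 poly(A) RNA libraries of whole embryos, and the deposited tables give 1 RPKM value (reads scaled by gene length and library size) per gene for each group. The genes compared were those with at least 5 RPKM in the knockdown or in the control table, 8786 of the 33737 Ensembl gene identifiers in the tables. Of these, 8013 reached 5 RPKM in both tables, 167 in the knockdown alone and 606 in the control alone, and 7172 had a gene symbol. Just inside the minimum stood ikbip, at 5.002 RPKM in knockdown and 4.272 RPKM in control embryos, and just outside it stood abi3b, at 4.563 RPKM in knockdown and 4.9998 RPKM in control embryos.

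At 2 hpf the zebrafish embryo is a ball of rapidly cleaving cells that lives on RNA and protein laid down by the mother, and most of its own genome is still silent. RNA levels at this age therefore depend largely on how stable the maternal transcripts are and on the length of their poly(A) tails, which sets how well oligo(dT) beads capture them. Helicases of the DDX3 family unwind RNA structure with the energy of ATP. They are known for a role in translation initiation on structured leaders, in storage granules of untranslated mRNA and, together with casein kinase 1, in Wnt signalling.

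The tables looked like those of embryos before genome activation. Transcripts known from the oocyte were abundant, with the claudin gene cldnd at 2064 RPKM in knockdown and 1520 RPKM in control embryos and nanog, a maternal activator of the genome, at 1187 and 1178 RPKM, in the same order. Of 40 genes known for early transcription by the embryo that were found in the tables, 37 stayed under 5 RPKM in both groups. Most identifiers did so as well, since 8786 of all 33737 reached 5 RPKM in either table. Markers of the yolk syncytial layer summed to 0.8513 RPKM in knockdown and 0.2995 RPKM in control embryos over 7 genes found, those of blood to 0.161 and 0.0658 RPKM over 5 genes found, and those of muscle and neurons to 0.0367 and 0.0548 RPKM over 5 genes found. Of 13 enveloping layer markers, 1 reached 5 RPKM, the adhesion gene epcam, at 901 RPKM in knockdown and 870.0 RPKM in control embryos. Of 11 follicle and ovary markers, which summed to 93.4 RPKM in knockdown and 126 RPKM in control embryos, 4 reached 5 RPKM, all of them zona pellucida genes, which the oocyte itself expresses. From the size of single-read steps, the knockdown libraries had 0.848 and 0.702 of the depth of the deepest library, and the control libraries 1 and 0.935.

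With 1 value per group no spread between libraries can be estimated, and no difference below has an error, a replicate check or a p-value. Differences are log2 ratios of (RPKM + 1), knockdown minus control, a scale that shrinks differences of genes near 0. A gene is said to have risen or fallen where that ratio was at least 2-fold, and genes past 1.5-fold are also counted. Among 238 genes whose low values allowed a single read to be priced, 5 RPKM stood for 402 reads in knockdown and 502 reads in control embryos at the median gene, a counting error of 0.10 on the log2 ratio (SE). For genes at the 90th percentile of read worth it stood for 62.0 and 77.4 reads, and the counting error was 0.25. These errors cover counting only, were not computed for the remaining genes, and take each deposited value to be the mean of both libraries, an assumption.

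The maternal RNA pool of knockdown embryos was close to that of control embryos, and the median gene was slightly lower. The median log2 ratio over the 8786 genes was -0.18, with quartiles of -0.36 and -0.0038, and 24.4% of the genes lay above 0. Of the genes compared 57 had risen (0.649%) and 84 had fallen (0.956%), together 1.6%, and past 1.5-fold these numbers were 159 (1.81%) and 662 (7.53%). The balance depended on the scaling: rescaling the tables so that the median ratio became 1 gave 83 rises and 45 falls, and quantile normalization 85 and 47. Of the 84 falls 60 had a symbol and of the 57 rises 25, where 7172 of all 8786 genes compared had one. Medians of gene lists are therefore set below beside the median of all genes. Rises, falls and genes past 1.5-fold are counted on the ratios as deposited, not relative to that median.

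The ratio followed the level of the transcript. Genes with a mean of 5 to 10 RPKM had a median log2 ratio of -0.23 (n = 2077), those of 20 to 50 RPKM one of -0.19 (n = 2353), those of 100 to 200 RPKM one of -0.06 (n = 553) and those above 500 RPKM one of 0.05 (n = 66). The most abundant maternal transcripts were nearly equal in both groups. Apart from the features described at the end, the 100 most abundant held 20.7% of the remaining RPKM sum in knockdown and 18.7% in control embryos, with a median log2 ratio of 0.04, and 1 of them passed 1.5-fold, the ribosomal RNA feature 5_8S_rRNA. Cyclin A2 (CCNA2), which drives the cleavage divisions, stood at 1416 RPKM in knockdown and 1513 RPKM in control embryos. The RNA-binding protein gene hnrnpa0l stood at 2244 and 2120 RPKM in the same order, and the histone variant gene h3f3d at 1104 and 1083 RPKM. None of 6 histone genes compared passed 1.5-fold, where 1.81% of all genes did upwards and 7.53% downwards.

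**Figure D1:**
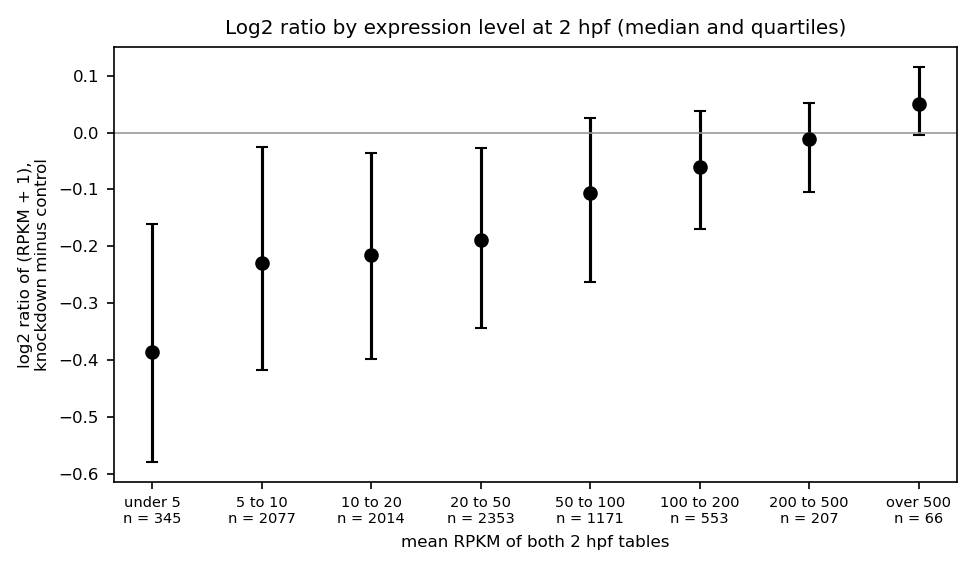
Median log2 ratio of (RPKM + 1), knockdown minus control at 2 hpf (points, vertical axis), with quartiles (bars), for genes binned by the mean RPKM of both tables (horizontal axis, number of genes under each bin). The median lies at -0.23 for genes of 5 to 10 RPKM and at 0.05 above 500 RPKM; the bin under 5 RPKM holds genes that passed the minimum in 1 table only.

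The targeted transcript lay near the median of all genes, but below the lower quartile of genes of its own level. ddx3xb (ENSDARG00000005774) stood at 251 RPKM in knockdown and 274 RPKM in control embryos, a log2 ratio of -0.13, and ranked 178 among the 8786 genes by mean level. Genes with a mean of 200 to 500 RPKM had a median log2 ratio of -0.01 and a lower quartile of -0.10 (n = 207). The paralog ddx3xa (ENSDARG00000020573), which can share reads with ddx3xb, stood at 84.3 RPKM in knockdown and 103 RPKM in control embryos (log2 ratio -0.28). For genes of 50 to 100 RPKM the lower quartile was -0.26. Since blocking translation can leave the RNA in place, the level of ddx3xb is no check of the labels. Among 38 DEAD and DEAH box helicase genes compared none rose or fell, where 1.6% of all genes did. In this list 3 passed 1.5-fold downwards, a share near the 7.53% of all genes. Their median log2 ratio was -0.21, beside -0.18 over all genes. The lowest ratios belonged to DDX56, a nucleolar helicase of ribosome assembly, with 7.51 RPKM in knockdown and 15.3 RPKM in control embryos, and to DDX28, a helicase of the mitochondrial ribosome, with 8.74 and 15.8 RPKM in the same order. The germ line helicase gene DDX4 (vasa) stood at 123.1 and 143 RPKM.

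Transcripts of the cytosolic ribosomal proteins, which with ribosomal RNA form the ribosome of the cytoplasm, stood above the rest of the pool as a group. All 68 compared lay above the median of all genes and 64 lay above 0, beside 24.4% of all genes above 0. Their median log2 ratio was 0.40, with quartiles from 0.25 to 0.53, beside -0.18 over all genes. None passed 2-fold by the ratio of (RPKM + 1) as deposited, and 10 passed 1.5-fold upwards, where 1.81% of all genes did. Both subunits shared this, with a median of 0.38 over 39 genes of the large subunit and 0.41 over 29 of the small subunit. This group remained above the median of all genes under every scaling tried, although its own median turned to -0.34 when the tables were rescaled to equal RPKM sums, a rescaling that moved the median of all genes to -0.90.

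The ratios of single ribosomal protein genes ran from -0.09 to 0.99. RPL35, of the large subunit, had the highest ratio, with 107 RPKM in knockdown and 53.3 RPKM in control embryos. It was 2.01-fold higher by RPKM, with a log2 ratio of 0.99, or 1.18 once rescaled to a median ratio of 1. RPS25, of the small subunit, had 210.4 RPKM in knockdown and 117 RPKM in control embryos (log2 ratio 0.84, or 1.03 so rescaled). RPS12 had 224 and 147 RPKM in the same order. RPL10A, which lies near the tRNA exit site, stood at 64.9 RPKM in knockdown and 41.6 RPKM in control embryos. The gene rps27a, which encodes a fusion of ubiquitin to a ribosomal protein, stood at 74.6 and 48.2 RPKM, and RPLP0, of the ribosomal stalk, at 70.17 and 44.4 RPKM. The most and the least abundant member had ratios under the group's median. The most abundant, RPS14, stood at 456 RPKM in knockdown and 413 RPKM in control embryos, and the least abundant, RPL13A, at 10.4 and 8.80 RPKM. The 4 members not above 0 were RPL18, with 178 RPKM in knockdown and 189 RPKM in control embryos, rps27.2 (65.2 and 66.7 RPKM), RPL8 (29.3 and 29.6 RPKM) and RPL4 (31.2 and 31.3 RPKM).

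Transcripts of the mitochondrial ribosome went the other way. Of 42 mitochondrial ribosomal protein genes compared 7 lay above 0 and 14 above the median of all genes, with a median log2 ratio of -0.38 beside -0.18 over all genes. In this group 2 fell and 14 passed 1.5-fold downwards, where 0.956% and 7.53% of all genes did, and none passed 1.5-fold upwards. MRPL35 fell to 3.33 RPKM in knockdown, against 8.13 RPKM in control embryos (log2 ratio -1.08, or -0.92 once rescaled to a median ratio of 1). MRPS18A fell to 7.22 RPKM in knockdown, against 16.1 RPKM in control embryos (log2 ratio -1.06, or -0.89 so rescaled). Neither was past 2-fold once rescaled. MRPL12, which binds the mitochondrial RNA polymerase, stood at 6.97 RPKM in knockdown and 13.6 RPKM in control embryos. The highest ratio was that of mrpl30, at 43.2 and 32.6 RPKM in the same order. Their levels were low, with a median of 8.50 RPKM in knockdown and 13.4 RPKM in control embryos, and 7 of the 42 reached 5 RPKM in the control table alone. Over the 35 at 5 RPKM in both tables the median was -0.33, beside -0.17 over all such genes. All genes of 5 to 10 RPKM had a median log2 ratio of -0.23 and a lower quartile of -0.42. Those of 10 to 20 RPKM had -0.22 and -0.40. The list median thus lay within the quartiles of genes of its level, and the part of level was not tested.

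**Figure D2:**
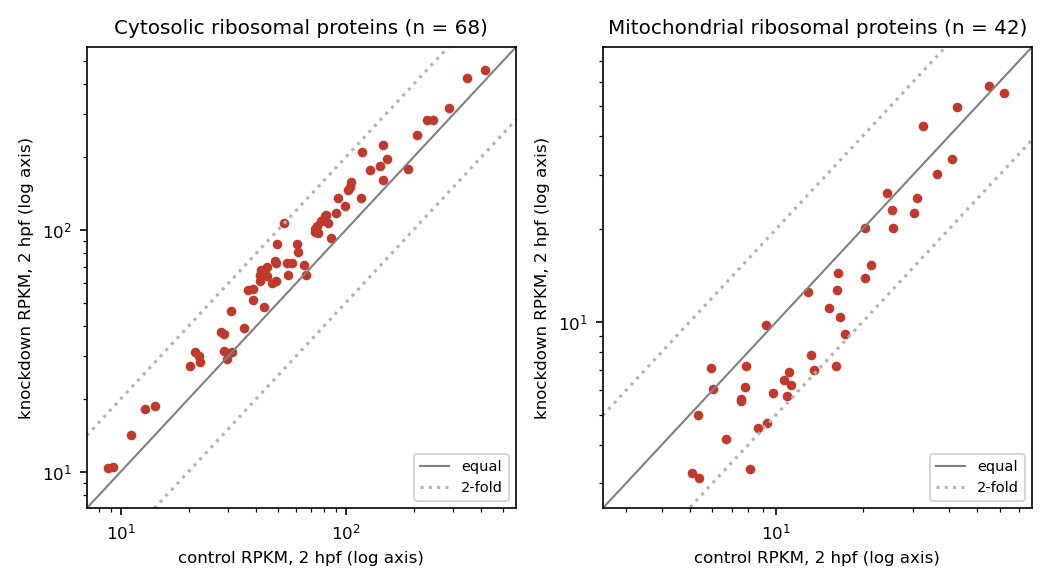
RPKM at 2 hpf in knockdown (vertical axis) against control (horizontal axis), both on log axes, for 68 cytosolic (left) and 42 mitochondrial (right) ribosomal protein genes, 1 point per gene. The solid line marks equal values and the dotted lines a 2-fold difference; 64 cytosolic genes and 7 mitochondrial genes lie above equality in the values as deposited.

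Genes for building ribosomes in the nucleolus did not follow the ribosomal proteins. None of 31 nucleolar assembly factors compared lay above 0 and 7 lay above the median of all genes, with a median log2 ratio of -0.32 (quartiles -0.55 and -0.22) beside -0.18. Of these 1 fell and 6 passed 1.5-fold downwards, where 0.956% and 7.53% of all genes did. RRP12, which acts in export of ribosome precursors, fell to 11.5 RPKM in knockdown, against 24.8 RPKM in control embryos (log2 ratio -1.04, or -0.86 rescaled in that way). POLR1D, a subunit shared by RNA polymerases I and III, stood at 40.3 RPKM in knockdown and 73.9 RPKM in control embryos, UTP11, of the small-subunit processome, at 20.6 and 36.0 RPKM in the same order, and rrp8, a methyltransferase gene, at 4.71 and 9.77 RPKM. Among the abundant members nucleolin (ncl) stood at 378 RPKM in knockdown and 456 RPKM in control embryos and fibrillarin (FBL) at 336 and 344 RPKM. PPAN, a factor of large-subunit assembly, is on none of the lists and was chosen after its value was seen. It fell to 22.8 RPKM in knockdown, against 46.9 RPKM in control embryos (just past 2-fold, with a log2 ratio of -1.01 as deposited).

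Translation factors were near the median of all genes. Of 52 genes matched to initiation factors by symbol 7 lay above 0, with a median log2 ratio of -0.19. The 52 include genes of eIF4E-binding proteins, such as eif4ebp1 (-0.32) and EIF4EBP2 (-0.25), which are not initiation factors themselves. Among the 52 none rose and 1 fell, where 0.649% and 0.956% of all genes did. That gene was EIF2S1, the alpha subunit of eIF2 that stress kinases phosphorylate, at 39.0 RPKM in knockdown and 79.1 RPKM in control embryos (just past 2-fold, with a log2 ratio of -0.82 rescaled in that way). The 6 genes of eIF2 and of its exchange factor eIF2B had a median of -0.45, with EIF2B4 at 4.93 RPKM in knockdown and 7.76 RPKM in control embryos and EIF2S2 at 16.9 and 22.5 RPKM in the same order. The 13 genes of eIF3 had a median of -0.14. The 21 matched to eIF4 by symbol, which include the eIF4E-binding proteins, also had -0.14. Among these the cap-binding gene eif4eb stood at 28.7 RPKM in knockdown and 40.9 RPKM in control embryos. The factor eif1axa, of start codon scanning, stood at 31.6 RPKM in knockdown and 56.1 RPKM in control embryos. Of 7 genes matched to elongation factors by symbol none passed 2-fold, where 1.6% of all genes did, and the median log2 ratio was 0.02. They include EEF1AKMT1 (-0.67), a methyltransferase gene, and EEF1E1 (-0.56), which are not elongation factors themselves. The gene eef1a1l1, which delivers tRNA to the ribosome, was nearly equal at 437 RPKM in knockdown and 431 RPKM in control embryos.

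Respiratory chain genes of the nucleus and of the mitochondrial genome differed in where they lay. They also differed in level, with a median in knockdown of 1048 RPKM for the mitochondrial genome and 16.6 RPKM for the nuclear genes. Over all genes the median log2 ratio was 0.05 above 500 RPKM and -0.22 from 10 to 20 RPKM. The part of level in the difference was not tested. All 13 protein genes of the mitochondrial genome lay above the median of all genes, with a median log2 ratio of 0.14 that came to 0 with quantile normalization and to -0.62 with equal RPKM sums. They ranged from MT-CO3, at 2401 RPKM in knockdown and 2391 RPKM in control embryos, to MT-ND6, at 907 and 738 RPKM in the same order. Of 57 nuclear genes of the chain none passed 2-fold, 8 passed 1.5-fold downwards, where 7.53% of all genes did, and the median was -0.11. Complex IV, the oxidase, had a median of -0.35 over 8 genes, between COX7A2L at 9.81 RPKM in knockdown and 18.01 RPKM in control embryos and cox5aa at 9.46 and 6.23 RPKM in the same order. Complex V, the ATP synthase, had a median of 0.06 over 15 genes. Its lowest ratio was that of ATP5F1B, a catalytic subunit, at 41.5 RPKM in knockdown and 71.3 RPKM in control embryos, and its highest that of atp5if1a, its inhibitor, at 84.5 and 58.6 RPKM.

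**Figure D3:**
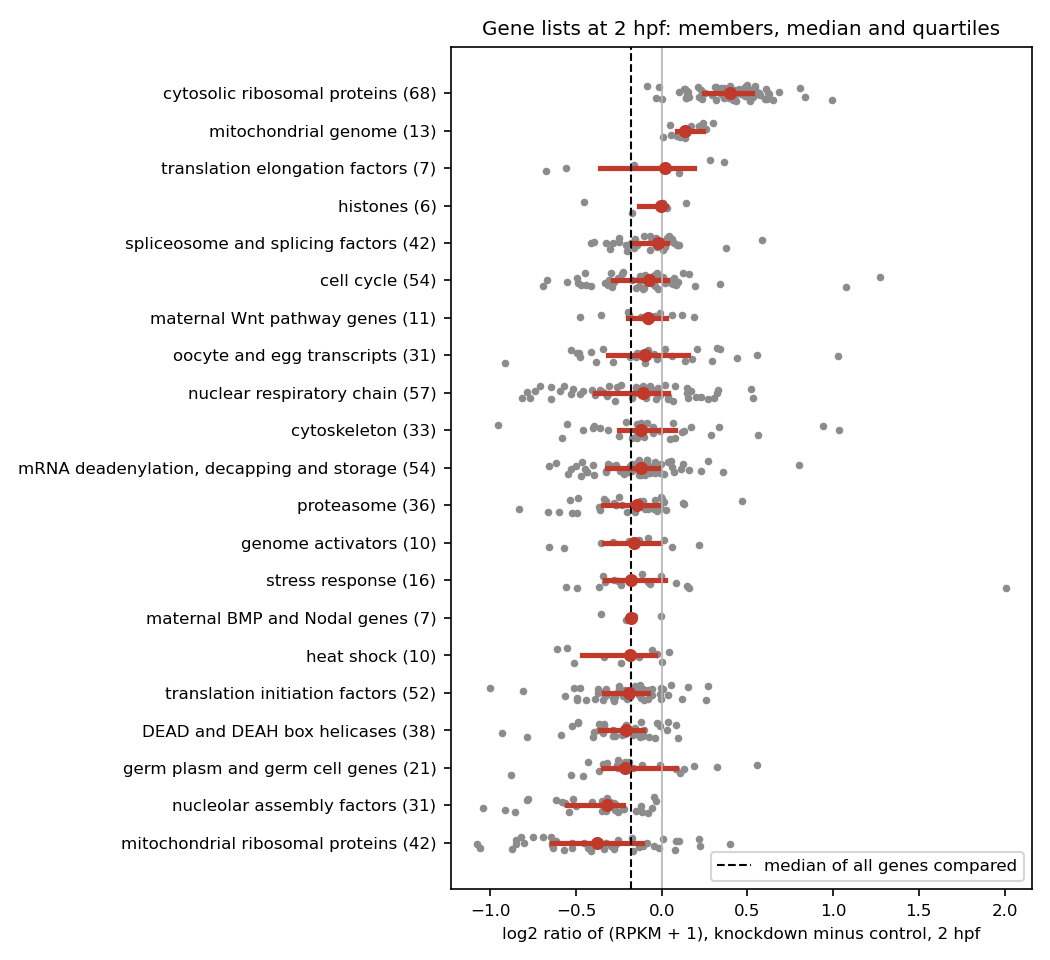
Log2 ratio of (RPKM + 1), knockdown minus control at 2 hpf (horizontal axis), of each member (grey points) of the 21 gene lists with at least 5 genes compared, whose number is in brackets, with the list median (red point) and quartiles (red bar). The dashed line is the median of all genes, -0.18; cytosolic ribosomal proteins lie highest at 0.40 and mitochondrial ribosomal proteins lowest at -0.38, relative to all genes under every scaling tried above and below it.

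Lists of genes that handle mRNA had medians slightly above the -0.18 of all genes. Of 54 genes of deadenylation, decapping and storage none passed 2-fold, where 1.6% of all genes did, and the median log2 ratio was -0.12. PAN3, a subunit of a poly(A) nuclease, was the 1 member past 1.5-fold upwards, at 55.4 RPKM in knockdown and 31.4 RPKM in control embryos. LSM1, of the decapping ring, stood at 33.5 RPKM in knockdown and 53.5 RPKM in control embryos, and IGF2BP3, which stabilizes maternal mRNA, at 41.5 and 64.2 RPKM. The 13 genes of the CCR4-NOT deadenylase had a median of -0.13. Splicing factors, which were abundant, had a median of -0.02 over 42 genes. None in the list passed 1.5-fold, where 1.81% of all genes did upwards and 7.53% downwards. Their median level was 115 RPKM in knockdown and 121 RPKM in control embryos. All genes of 100 to 200 RPKM had a median log2 ratio of -0.06, and the part of level was not tested. Outside that list srrm2, a scaffold of nuclear speckles, fell to 12.5 RPKM in knockdown, against 43.6 RPKM in control embryos. Of 36 proteasome genes none passed 2-fold, where 1.6% of all genes did, and the median was -0.14.

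Of 31 oocyte and egg transcripts 1 rose and none fell, where 0.649% and 0.956% of all genes did, and the median log2 ratio was -0.10. The gene that rose was org, an oogenesis-related gene, at 369.9 RPKM in knockdown and 181 RPKM in control embryos (log2 ratio 1.03). At the other end npm2a, a nucleoplasmin gene of the egg, stood at 3.69 RPKM in knockdown and 7.86 RPKM in control embryos (log2 ratio -0.92). The claudin gene cldnd and the germ line gene DAZL also stood higher, DAZL at 151 RPKM in knockdown and 102 RPKM in control embryos. Of 21 germ plasm and germ cell genes none passed 2-fold, where 1.6% of all genes did, and the median was -0.21. The germ plasm organizer buc stood at 118 RPKM in knockdown and 170.4 RPKM in control embryos, ca15b at 19.5 and 36.7 RPKM in the same order, and NANOS3, which protects germ cells, at 49.99 and 43.82 RPKM. Of the zona pellucida genes zp3b stood at 45.2 RPKM in knockdown and 64.1 RPKM in control embryos and zp2.1 at 9.71 and 10.3 RPKM. In whole embryos fewer cells of a type and less RNA per cell cannot be told apart.

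The maternal factors that later activate the genome and pattern the axes had list medians from -0.18 to -0.08, beside -0.18 over all genes. Of 10 genome activators none passed 2-fold, where 1.6% of all genes did, and 1, CTCF, passed 1.5-fold downwards, where 7.53% did. The gene pou5f3 stood at 496 RPKM in knockdown and 566 RPKM in control embryos. Its partner of the SoxB1 family, sox19b, stood at 273 RPKM in knockdown and 406 RPKM in control embryos (log2 ratio -0.57, or -0.38 rescaled in that way), and the insulator protein gene CTCF at 79.2 and 126 RPKM. Of 11 Wnt pathway genes none passed 1.5-fold, where 1.81% of all genes did upwards and 7.53% downwards, and the median log2 ratio was -0.08. The beta-catenin genes stood at 204 RPKM in knockdown and 233 RPKM in control embryos (CTNNB1) and at 565 and 519.8 RPKM in the same order (ctnnb2), and the casein kinase gene CSNK1A1 at 10.6 and 15.1 RPKM. GSK3A, a kinase that marks beta-catenin for destruction, rose to 74.96 RPKM in knockdown, against 32.9 RPKM in control embryos. The Wnt list held the symbols gsk3aa and gsk3ab but not GSK3A, and only exact symbols were matched. GSK3A is therefore missing from the 11 through its symbol alone, and was chosen after its value was seen. Of 45 symbols on that list 20 were found in the tables. All 7 BMP and Nodal pathway genes compared lay between -0.36 and -0.01, where 24.4% of all genes lay above 0. Their median of -0.18 was that of all genes, and 4 of the 7 lay above 0 once rescaled to a median ratio of 1. Among the 7 the Nodal partner gene gdf3 stood at 264 RPKM in knockdown and 295 RPKM in control embryos.

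Of 54 cell cycle genes compared 2 rose and none fell, where 0.649% and 0.956% of all genes did, and the median log2 ratio was -0.08. TOP2A, which untangles sister chromatids, rose to 20.3 RPKM in knockdown, against 7.78 RPKM in control embryos, and CDC45, of the replicative helicase, to 33.3 RPKM in knockdown, against 15.3 RPKM in control embryos. MCM5, of the same helicase, stood at 27.7 RPKM in knockdown and 45.4 RPKM in control embryos. Outside that list rose cenpe, a motor at the kinetochore, at 14.2 RPKM in knockdown and 3.30 RPKM in control embryos, and ASF1B, a chaperone of new histones, at 34.3 and 13.6 RPKM. Of 33 cytoskeleton genes 1 rose and none fell, where 0.649% and 0.956% of all genes did, and the median log2 ratio was -0.12. The spindle motor gene kif15 was that 1, at 20.9 RPKM in knockdown and 9.70 RPKM in control embryos. In the same list tmsb4x, which binds actin monomers, stood at 60.9 RPKM in knockdown and 31.2 RPKM in control embryos and pfn1, a profilin, at 45.5 and 89.0 RPKM, and neither passed 2-fold.

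Of 16 stress response genes compared 1 rose, where 0.649% of all genes did, and the median log2 ratio was -0.18, as over all genes. sesn2, a sestrin that restrains the growth kinase mTORC1 under stress, rose to 29.1 RPKM in knockdown, against 6.48 RPKM in control embryos (log2 ratio 2.01). The other 15 stress response genes compared did not pass 1.5-fold, where 1.81% of all genes did upwards and 7.53% downwards. Among the 15 were CCNG1, a cyclin gene, at 458 RPKM in knockdown and 433 RPKM in control embryos, and DDIT4, another inhibitor of mTORC1, at 335 and 299.9 RPKM. Of 10 heat shock genes none passed 2-fold, where 1.6% of all genes did. The constitutive chaperone HSPA8 stood at 512 RPKM in knockdown and 496 RPKM in control embryos. The mitochondrial chaperone HSPA9 stood at 37.7 and 58.1 RPKM in the same order.

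Among the other large rises were MED11, a subunit of the Mediator complex, at 7.38 RPKM in knockdown and 0.817 RPKM in control embryos, hdlbpb, which codes for the RNA-binding protein vigilin, at 13.2 and 4.73 RPKM, and APEX2, a DNA repair nuclease, at 12.3 and 4.47 RPKM in the same order. Genes with clone-based symbols complete the 12 largest, namely si:ch211-153m11.1 (14.7 and 5.90 RPKM) and the identifiers ENSDARG00000075022 (29.5 and 9.58 RPKM), ENSDARG00000095745 (7.70 and 1.05 RPKM) and ENSDARG00000040141 (7.03 and 1.41 RPKM). Most of these genes were of low to moderate level: of 25 rises with a symbol 10 reached 20 RPKM in the higher table and 3 reached 50 RPKM.

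The largest falls were also in genes of modest level, and of 60 with a symbol 16 reached 20 RPKM in the higher table. The gene sc:d217 fell furthest, to 0.0710 RPKM in knockdown, against 14.2 RPKM in control embryos. si:dkey-253d23.3 stood at 0.511 RPKM in knockdown and 8.14 RPKM in control embryos, and its neighbour by name si:dkey-253d23.2, chosen after its value was seen, at 13.6 and 29.5 RPKM in the same order. The membrane protein gene tmem45a had 3.21 RPKM in knockdown and 20.03 RPKM in control embryos, and spata2l had 3.67 and 20.8 RPKM. npdc1b had 1.06 RPKM in knockdown and 8.41 RPKM in control embryos, b4galnt1a, which codes for an enzyme of ganglioside synthesis, had 2.00 and 10.3 RPKM, and the adhesion gene DSCAM had 0.689 and 5.32 RPKM. Also among the 12 were zgc:171717 (3.41 and 14.5 RPKM), si:ch1073-143l10.2 (1.67 and 7.91 RPKM), kctd12b (0.842 and 5.07 RPKM) and LAP3, an aminopeptidase gene (2.93 and 11.0 RPKM). Among identifiers without a symbol ENSDARG00000087378 fell to 0.156 RPKM in knockdown, against 7.29 RPKM in control embryos.

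**Figure D4:**
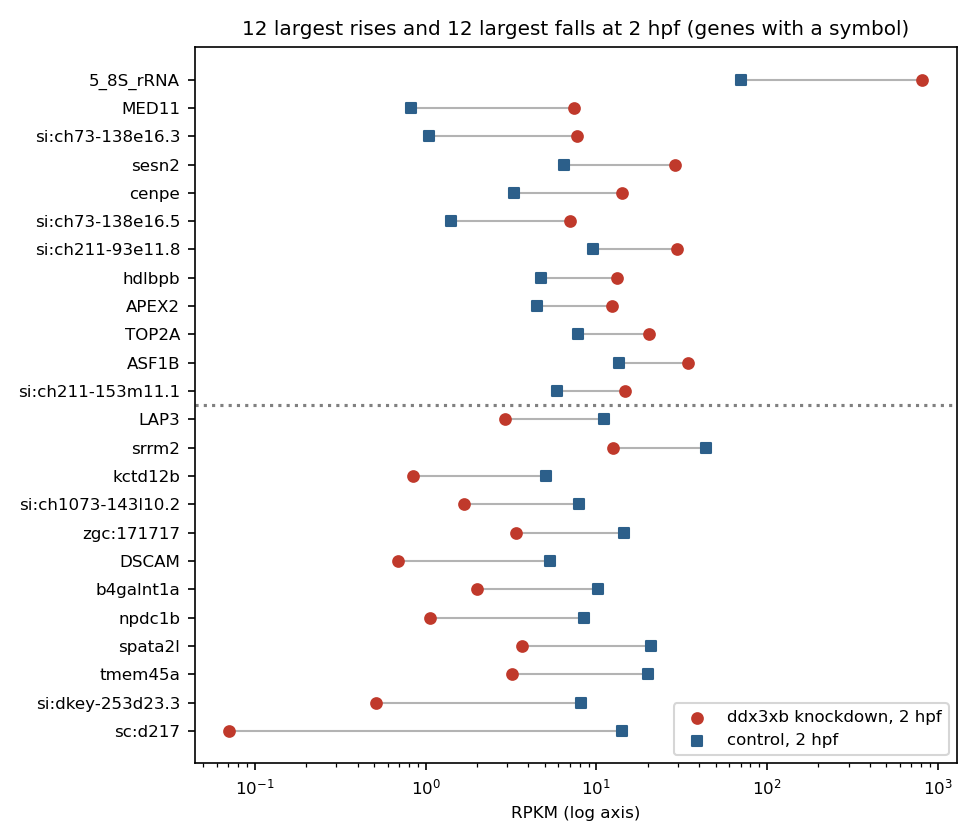
RPKM at 2 hpf (log axis) of the 12 largest rises (above the dotted line) and 12 largest falls (below it) among genes with a symbol, with knockdown as red circles and control as blue squares, 1 value per group. The highest is 5_8S_rRNA at 812 RPKM in knockdown and 70.04 RPKM in control embryos, and the others lie at 43.6 RPKM or below in both groups.

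A set of features without symbols dominated the knockdown table. The 5 above 5000 RPKM took 45.1% of its RPKM sum and 1.34% of that of the control table, and they were higher by close factors, from 53.9-fold to 59.7-fold by RPKM. The highest, ENSDARG00000085168, stood at 126060 RPKM in knockdown and 2147 RPKM in control embryos, and took 38.2% of the sum of the 5 in knockdown and 37.2% in control embryos. The lowest, ENSDARG00000090280, stood at 8646 RPKM in knockdown and 148 RPKM in control embryos, and took 2.62% and 2.57% of that sum. The ribosomal RNA feature 5_8S_rRNA was 11.6-fold higher by RPKM, while 5S_rRNA, a feature of the other small ribosomal RNA, fell to 8.32 RPKM in knockdown, against 17.9 RPKM in control embryos. Without the 5 features the RPKM sums were 401471 in knockdown and 426029 in control embryos, and rescaling to equal sums on that basis gave 65 rises and 54 falls. In all 22 features without a symbol rose past 4-fold, against 4 genes with one, and 13 of the 22 stood under 1 RPKM in control embryos, 5 of these listed at 0. What these features are cannot be said from the tables, which hold no names, lengths or positions for them, and their part in the other differences was not tested.

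Like most identifiers in the tables, nearly all first-wave zygotic genes stood under the 5 RPKM minimum. Between 0.1 and 5 RPKM there were 25 of them, and 17 stood higher in knockdown, which is 68.0%, beside 31.5% of the 9529 genes in that range. Levels of the 25 were low, and their counting errors are not given here. The gene nnr stood at 1.08 RPKM in knockdown and 0.145 RPKM in control embryos, and her5, a Hairy-related repressor gene, at 1.78 and 0.448 RPKM. SOX3, of the SoxB1 family, stood at 1.75 and 0.682 RPKM, and grhl3, a regulator of the enveloping layer, at 1.06 and 0.127 RPKM. The keratin gene krt8 (0.730 and 2.08 RPKM) and HSPB1 (0.976 and 3.10 RPKM) stood lower in knockdown. Of the 3 such genes at 5 RPKM or more, blf, a zinc finger gene, stood at 10.4 RPKM in knockdown and 7.07 RPKM in control embryos, snai1a, which is also maternal, at 130 and 127 RPKM, and PLEKHF2 at 34.2 and 44.5 RPKM.

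The genes that had risen or fallen at 2 hpf were then looked up in the tables of separate libraries at 6 hpf, after genome activation. Of the 57 that had risen at 2 hpf 22 were at least 2-fold higher in knockdown at 6 hpf as well (38.6%), beside 12.4% of all 8786 genes, and 3 were lower (5.26%), beside 1.92%. Only 6 of the 22 had a symbol. The 22 include the 5 features above 5000 RPKM and 5_8S_rRNA. They also include identifiers with close values at 6 hpf. Examples are ENSDARG00000077712 (281 RPKM in knockdown and 47.0 RPKM in control embryos) and ENSDARG00000091017 (281 and 50.3 RPKM). Such features may not be separate genes, so the share of 38.6% may count the same RNA more than once. Of the 84 that had fallen 14 were also lower at 6 hpf (16.7%) and 5 were higher (5.95%). Genes lower at both ages included sc:d217, with 0.0278 RPKM in knockdown and 1.61 RPKM in control embryos at 6 hpf, tmem45a with 3.66 and 10.5 RPKM, and the glycolytic gene ALDOA. It stood at 20.8 RPKM in knockdown and 42.7 RPKM in control embryos at 2 hpf, and by 6 hpf at 129 RPKM in knockdown and 387 RPKM in control embryos. Higher at both ages was ENSDARG00000095745, with 349.6 RPKM in knockdown and 50.4 RPKM in control embryos at 6 hpf. The same held for ENSDARG00000040141, with 391.7 RPKM in knockdown and 65.7 RPKM in control embryos at 6 hpf. The rise of sesn2 was not seen at 6 hpf, where it stood at 2.75 RPKM in knockdown and 2.62 RPKM in control embryos. The ribosomal protein transcripts lay on the other side at 6 hpf, with a median log2 ratio of -0.68 and 1 of 68 above 0, beside a median of 0.35 over all genes of the comparison.

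**Figure D5:**
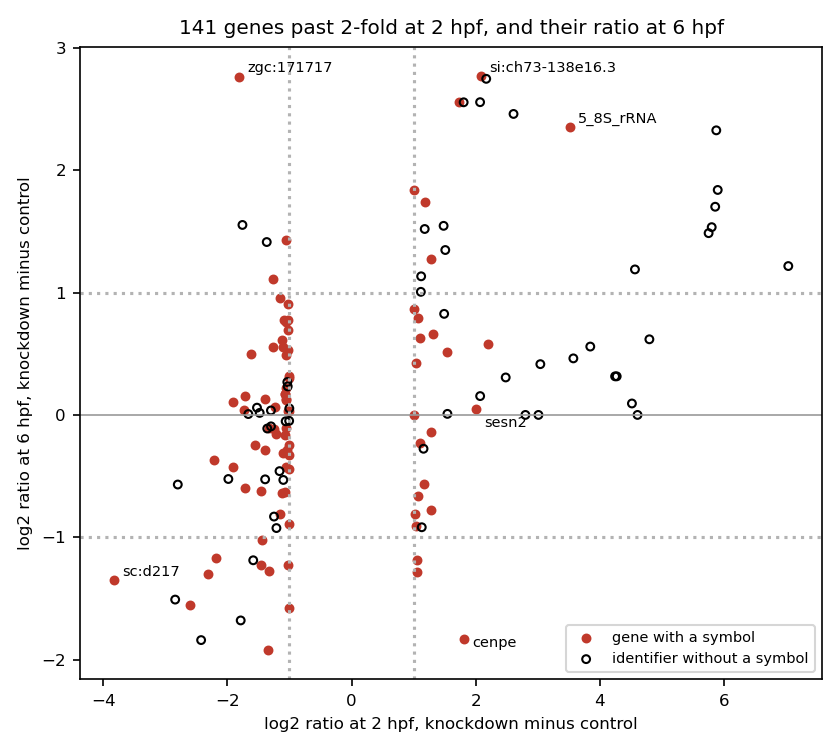
Log2 ratio of (RPKM + 1), knockdown minus control, at 6 hpf (vertical axis) against 2 hpf (horizontal axis) for the genes past 2-fold at 2 hpf, with symbols in red and identifiers without one as open circles; dotted lines mark 2-fold. cenpe lies at 1.82 and -1.83 and zgc:171717 at -1.82 and 2.76 on the horizontal and vertical axes.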

How the data were processed

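Per the labels' protocols, RNA was isolated with TRIzol, selected for poly(A) with oligo(dT) and made into libraries with a stranded KAPA kit. HISAT2 2.0.5, SAMtools 1.9, cutadapt 1.13, Trimmomatic 0.36 and build Zv9 are tools and genome listed per the submitters' processing notes. The counting program, its strand option, the annotation and the way 2 libraries became 1 value were not given in the sources used here. Deposited values are RPKM from the authors, 1 per gene and group. Tables were matched to groups by the arm and age in their names; the control group's genotype label reads wild type and its titles name a control morpholino.

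Values were compared with pandas 2.3.3 as log2(RPKM + 1) for genes with at least 5 RPKM in either table. A limma fit was planned for values per library and could not be made. The code that makes the calls was run on simulated data, which checks the code and gives no error rate for the calls made here. Relative depth was read from ratios of values under 0.3 RPKM in both tables (tolerance 0.0003).

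Members and gene lists were chosen with earlier results of these data known. Named genes were ddx3xb and ddx3xa, the 12 largest rises and falls with a symbol, up to 2 identifiers without one per direction, features above 5000 RPKM, the 8 most abundant genes, up to 5 members per list by size of ratio with the most abundant member, and genes next to the minimum. Further members in the text were picked with their values in view. Symbols matched 21939 of 33737 identifiers, and a few symbols belong to more than 1 identifier. Overlapping genes, antisense genes and near-identical copies can share reads.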

Additional observations from a re-analysis of the deposited data

Results flagged for a closer look

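The knockdown ratio went opposite ways at 2 and 6 hpf, past 2-fold at both ages, for 6 genes with a symbol; the difference between the ages was not tested, since each age has 1 value per group. cenpe had a log2 ratio of 1.82 at 2 hpf and -1.83 at 6 hpf (difference 3.65), with 7.54 RPKM in knockdown and 29.3 RPKM in control embryos at 6 hpf. knl1, a kinetochore scaffold gene, had 1.05 and -1.19 (difference 2.24), and akap9, which codes for a centrosomal anchoring protein, had 1.06 and -1.28 (difference 2.34), both with 2 hpf first. The others were lower at 2 hpf and higher at 6 hpf. NEIL1, a DNA repair glycosylase gene, had -1.26 and 1.11 (difference -2.37), si:ch211-145c1.1 had -1.05 and 1.43 (difference -2.48) and zgc:171717 had -1.82 and 2.76 (difference -4.58).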

How the results depend on the processing

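No paired analysis was possible because each group has 1 value per gene, and for the same reason no replicate could be left out. Bins of protein length and a search for letters at gene starts were not run, since no sequence or length was at hand. Against 57 rises, there were 71 with a pseudocount of 0.1 and 33 with one of 5 RPKM, 82 with a minimum of 1 RPKM or none and 23 with one of 20 RPKM. Rescaling by the median ratio gave 83 rises, quantile normalization 85, equal RPKM sums 29 and equal sums without the 5 largest features 65. There were 23 with 5 RPKM in both tables, a setting chosen after seeing the data. Against 84 falls, there were 143 with a pseudocount of 0.1 and 19 with one of 5 RPKM, 153 with a minimum of 1 RPKM or none, 20 with one of 20 RPKM, 45 after rescaling by the median ratio, 47 with quantile normalization, 3012 with equal RPKM sums, 54 with equal sums without the 5 largest features and 30 with 5 RPKM in both tables. At 1.5-fold there were 159 rises and 662 falls, and at 4-fold 26 and 8. Of 21 lists with at least 5 genes 14 had a median above that of all genes, 9 with quantile normalization and 2 with no minimum. With no minimum 12 lists crossed the median of all genes, and 5 of them had stood at least 0.1 away, the distance set here for a reversal: elongation factors (-0.006), splicing factors (-0.0242), Wnt (-0.058), cell cycle (-0.10) and histones (-0.0825). With quantile normalization 5 crossed it, namely cell cycle (-0.0126), histones (-0.0333), genome activators (-0.1292), oocyte transcripts (-0.0064) and stress genes (-0.0072). Under each other setting at most 3 lists did. The causes were not tested, except that with no minimum the median of all genes is 0, as most are near 0.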

Other observations

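Lists of centromere and centrosome genes were added after the rises were seen, so their counts describe these tables and support nothing. Of 28 centromere and kinetochore genes compared 3 rose, cenpe, knl1 and TRIP13, and none fell, beside 0.649% and 0.956% of all genes, while the median log2 ratio of -0.16 was close to that of all genes. TRIP13, an ATPase of the spindle checkpoint, stood at 14.1 RPKM in knockdown and 6.46 RPKM in control embryos, and knl1 at 8.18 and 3.44 RPKM in the same order. Their partners did not go with them: ndc80 stood at 106 RPKM in knockdown and 109 RPKM in control embryos, and cenpk at 13.8 and 23.8 RPKM.

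Of 41 centriole and centrosome genes 1 rose, where 0.649% of all genes did. It was akap9, at 12.99 RPKM in knockdown and 5.73 RPKM in control embryos. The median was -0.12. Genes of centriole assembly lay on both sides, with stil at 26.1 RPKM in knockdown and 12.7 RPKM in control embryos, SASS6 at 45.1 and 28.6 RPKM and the kinase gene PLK4 at 3.92 and 5.55 RPKM. The scaffold gene pcnt stood at 70.23 RPKM in knockdown and 43.6 RPKM in control embryos. PCM1, of the centriolar satellites, was equal at 124 RPKM in both groups, and haus5, of the augmin complex, stood at 21.4 RPKM in knockdown and 36.8 RPKM in control embryos.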
